A study of Mus musculus with 2 samples.

Results

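Cytochrome P450 genes and the aryl hydrocarbon receptor genes Ahr, Arnt and Ahrr were compared between lungs of wild-type and Rosa26-Foxm1 mice. Members were all genes with a probe of their own whose symbol is Cyp followed by a digit, with 1 such gene left out, together with those partner genes. This gave 66 genes of the 13840 named on the array, 63 P450 genes and 3 receptor genes. No probe carried Por, the reductase that passes electrons to microsomal P450 enzymes, under its name alone, so it has no value here. RefSeq lists 98 protein-coding P450 genes under the same rule, and 36 of them had no probe of their own in the table used here.

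RNA came from left lung lobes taken 12 weeks after 3-methylcholanthrene (MCA), with the RNA of 3 mice pooled for each array and 1 array per genotype. Both groups had received MCA, a polycyclic aromatic hydrocarbon, once intraperitoneally at 15 µg per g body weight. Both had then received 6 weekly intraperitoneal injections of the lung tumour promoter butylated hydroxytoluene (BHT), at 150 µg/g for the first and 200 µg/g for the others. By their labels the wild-type animals were male and of strain FVB/N. For the Rosa26-Foxm1 mice, which carry the transcription factor Foxm1 as a transgene and whose lungs are called transgenic below, the labels of the array give neither strain nor sex, nor the cells that express the transgene. Lungs without MCA and BHT were not analysed here, so every value below was measured in treated lung.

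P450 enzymes are haem proteins that insert an oxygen atom into their substrates. Families 1 to 3 oxidise mainly foreign compounds, family 4 mainly fatty acids, and the other families act on sterols, steroid hormones, bile acids and vitamins. Polycyclic hydrocarbons such as MCA bind the aryl hydrocarbon receptor Ahr, which pairs with Arnt and binds DNA elements around the core GCGTG in Cyp1a1, Cyp1a2, Cyp1b1 and Ahrr. Ahrr, the product of one of these target genes, represses the receptor. The family 1 enzymes in turn oxidise the hydrocarbon, both on the way to DNA-binding metabolites and on the way to excretion. In the lung, P450 enzymes are found above all in club cells, and also in type II, endothelial and other cells.

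The promoters of the family 1 genes and of Ahrr are shown because these are the receptor's classical target genes, and that of Cyp4v3 because it was the only member at least 1.5-fold higher with the floor defined below. Each window runs from 250 bases before to 50 bases after the start site in RefSeq (build GRCm38.p6), 5′ to 3′ on the gene's strand. Capitals mark GCGTG on either strand, so that a match on the other strand reads CACGC.

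Cyp1a1: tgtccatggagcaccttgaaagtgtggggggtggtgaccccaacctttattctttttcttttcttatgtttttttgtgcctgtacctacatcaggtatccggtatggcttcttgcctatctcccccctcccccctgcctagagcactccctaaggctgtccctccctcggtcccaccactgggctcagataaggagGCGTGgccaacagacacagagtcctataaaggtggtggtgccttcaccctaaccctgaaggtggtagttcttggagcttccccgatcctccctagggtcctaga
Cyp1a2: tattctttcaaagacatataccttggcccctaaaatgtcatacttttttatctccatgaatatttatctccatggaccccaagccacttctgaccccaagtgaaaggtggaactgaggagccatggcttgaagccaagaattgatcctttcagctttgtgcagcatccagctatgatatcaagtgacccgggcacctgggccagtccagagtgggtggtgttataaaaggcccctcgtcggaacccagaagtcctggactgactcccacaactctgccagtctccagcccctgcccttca
Cyp1b1: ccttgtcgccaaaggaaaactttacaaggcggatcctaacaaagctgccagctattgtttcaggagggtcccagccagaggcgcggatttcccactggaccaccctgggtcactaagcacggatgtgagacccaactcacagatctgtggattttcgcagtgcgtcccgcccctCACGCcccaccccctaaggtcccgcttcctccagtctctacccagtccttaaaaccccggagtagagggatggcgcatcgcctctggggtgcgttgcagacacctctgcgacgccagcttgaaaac
Ahrr: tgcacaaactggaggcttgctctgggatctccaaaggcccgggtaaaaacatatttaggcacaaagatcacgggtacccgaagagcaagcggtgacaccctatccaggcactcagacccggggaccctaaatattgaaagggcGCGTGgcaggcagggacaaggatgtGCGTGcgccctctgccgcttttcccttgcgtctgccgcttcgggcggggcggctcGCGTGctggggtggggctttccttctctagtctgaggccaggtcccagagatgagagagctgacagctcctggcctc
Cyp4v3: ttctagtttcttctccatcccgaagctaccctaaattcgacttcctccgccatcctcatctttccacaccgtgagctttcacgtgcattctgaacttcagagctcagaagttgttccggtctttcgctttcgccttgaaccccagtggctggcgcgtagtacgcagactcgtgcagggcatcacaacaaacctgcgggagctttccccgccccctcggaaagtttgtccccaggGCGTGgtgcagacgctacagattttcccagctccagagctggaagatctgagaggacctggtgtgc

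The windows lie at chr9:57697363-57697662 (plus strand) for Cyp1a1 and chr9:57683606-57683905 (minus strand) for Cyp1a2. Those of Cyp1b1, Ahrr and Cyp4v3, all on the minus strand, are chr17:79715012-79715311, chr13:74292282-74292581 and chr8:45333114-45333413. Ahrr had 3 copies of the core, Cyp1a1, Cyp1b1 and Cyp4v3 had 1 each, and Cyp1a2 had 0. Promoter windows were listed for 49 of the 66 genes, 56 windows in all. The core GCGTG was in 26.8% of these windows and in 32.4% of all 32851 windows of this length. The longer element TNGCGTG, which contains the core, was in 1 of the 56 windows, that of Ahrr, and in 5.07% of all windows. Sequence outside these windows was not searched, so a count of 0 does not mean that a gene lacks the element. A match is a run of letters, and receptor binding was not measured here.

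The array held 33012 probes, and the deposited intensities had a median of 1.00 on both arrays. Intensities below are quantile normalised, and values up to the median of all probes, 1.00, count as below the floor. Of the 66 genes, 29 were measured, that is above the floor on at least 1 array, 24 of them on both. The other 37 were below the floor on both arrays. With 1 array per group there is no replicate spread and no test of a difference between the genotypes. The only error available is the probe SD, the spread of the log2 difference between probes of the same gene. Over 317 genes with several measured probes it was 0.31, with 0.38 in the dimmer and 0.23 in the brighter of them, and it leaves out differences between mice. The defining lung transcripts were bright on both arrays: the surfactant gene Sftpc had intensities of 1228 in wild-type and 859 in transgenic lung, and the club cell gene Scgb1a1 2544 and 1767.

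Cyp1a1 stood far below its wild-type value in transgenic lung. In whole lung, fewer cells of a type and less RNA per cell cannot be told apart. Cyp4b1, Cyp2e1, Cyp2d22 and the dim receptor genes Ahr and Arnt were at least 1.5-fold lower, and Cyp4v3 was the 1 member at least 1.5-fold higher. In all, 6 of the 29 measured members, 20.7%, were at least 1.5-fold lower, where 8.46% of all 9518 measured genes were. The 1 member that was higher is 3.45% of the measured members, where 7.10% of all measured genes were at least 1.5-fold higher. Among the 26 measured P450 genes alone, 4 (15.4%) were at least 1.5-fold lower and 1 (3.85%) higher. At least 2-fold lower was 1 member, Cyp1a1, against 1.51% of all genes, and 0 members were at least 2-fold higher, against 1.99%. Taken in either direction, 7 members were at least 1.5-fold apart, against 15.6% of all measured genes, and the other 22 lay between, on both sides of 0. The median log2 difference of the measured members was -0.12, and that of all measured genes -0.06. Below 0 were 55.2% of the measured members and 56.0% of all measured genes. With loess scaling 2 members were at least 1.5-fold higher and 6 lower, since Cyp2a4 passed the line, against 7.78% and 7.65% of all genes. With median scaling 5 members, 17.2%, were lower, since Cyp4b1 fell short of the line, against 8.46% of all genes. If the floor is lowered to the 25th percentile, 55 members are measured, and 4 of them are higher and 15 lower, where 10.9% and 12.4% of all genes are.

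**Figure D1:**
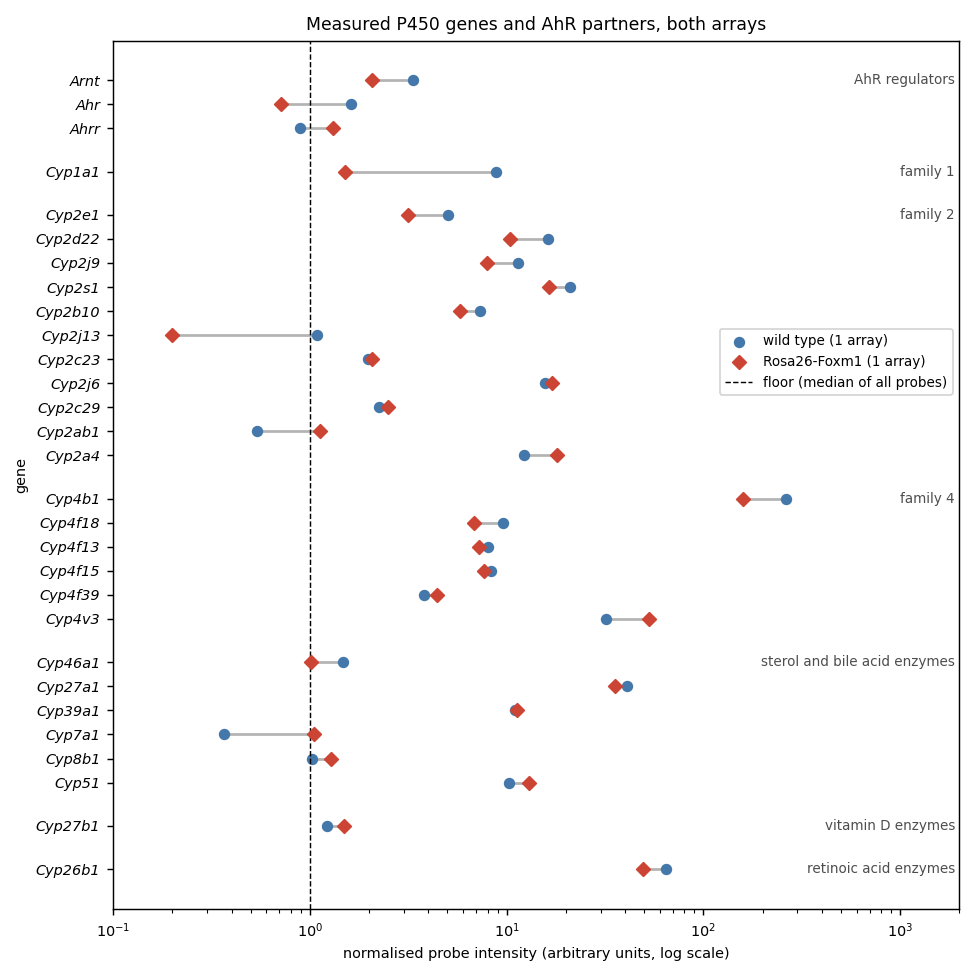
Normalised probe intensity (log scale, arbitrary units) of the 29 measured members in wild-type lung (circles) and transgenic Rosa26-Foxm1 lung (diamonds), 1 array each, grouped by role, with the floor as a dashed line. Cyp1a1 has the longest gap among members above the floor on both arrays, 8.80 against 1.51, and intensities of different probes do not rank the genes.

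Cyp1a1, the hydrocarbon-inducible oxidase, had an intensity of 8.80 in wild-type lung and 1.51 in transgenic lung. The Rosa26-Foxm1 value was close to the floor and the wild-type value was not. The log2 difference was -2.54 (5.82-fold lower), 8.12 times the probe SD over all pairs and 6.76 times that of the dimmer pairs, and 0.0420% of all measured genes had a lower one. It rests on 1 probe. If the floor is raised to the 75th percentile, the transgenic value falls below it and the difference becomes a bound of only -0.24. Its family members, Cyp1a2, which is chiefly a liver enzyme, and Cyp1b1, which oxidises hydrocarbons and oestradiol outside the liver, were below the floor on both arrays. Cyp1a2 read 0.180 in wild-type and 0.880 in transgenic lung, and Cyp1b1 0.680 and 0.222. Neither gene can therefore be set beside Cyp1a1.

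The receptor genes were dim on both arrays. Arnt, the common partner of Ahr and of hypoxia-inducible factors, read 3.35 in wild-type and 2.06 in transgenic lung, which is -0.70 on the log2 scale (1.63-fold lower). Ahr itself read 1.62 in wild-type lung and, below the floor, 0.717 in transgenic lung, so it was at least 1.61-fold lower. Ahrr went the other way, from 0.895 below the floor to 1.31, at least 1.31-fold higher, and short of 1.5-fold. The Arnt and Ahr differences were 2.25 and 2.20 times the probe SD over all pairs but 1.87 and 1.83 times that of the dimmer pairs, with Ahr as a bound, and all 3 genes rest on 1 probe each.

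Outside the P450 genes, few of the listed receptor battery and cofactor genes had a probe of their own, 6 of 19, and all 6 were measured. Of these, 1 was at least 1.5-fold higher and 0 were lower, against 7.10% and 8.46% of all measured genes. The median was -0.00, or 0.07 with median scaling. Arnt2, a paralogue of Arnt, read 1.96 in wild-type and 6.43 in transgenic lung, 3.29-fold higher. With the floor at the 75th percentile Arnt2 was below it on both arrays. The count of genes higher was then 0 and the median of the list -0.34. The receptor targets Tiparp, an ADP-ribosyltransferase, and Aldh3a1, an aldehyde dehydrogenase, differed by 0.43 and 0.15 on the log2 scale. Neither was 1.5-fold apart, and the Aldh3a1 difference was within the probe SD. Tiparp was dim, at 1.92 in wild-type and 2.59 in transgenic lung, and its difference was little larger than the 0.38 of the dimmer probe pairs. The part of the receptor in the Cyp1a1 value was not tested. Fmo2, the lung flavin monooxygenase, Selenbp2 and the Hsp90 cochaperone Ptges3 were at -0.55, -0.34 and -0.16.

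Among the 29 family 2 genes, whose enzymes oxidise drugs, solvents and fatty acids, 11 were measured and 18 were below the floor on both arrays. Of the 11, 2 were at least 1.5-fold lower, 0 higher, and 9 lay between, against 8.46% lower and 7.10% higher of all measured genes. Below 0 were 6 of the 11, 54.5%, and above 0 were 5, where 56.0% of all measured genes were below 0. Cyp2e1, an oxidase of ethanol and small solvents, read 5.06 in wild-type and 3.16 in transgenic lung (1.60-fold lower). Cyp2d22 read 16.3 and 10.4 (1.57-fold lower). Both were just past the 1.5-fold line, at -0.68 and -0.65 on the log2 scale. Cyp2j9, of the arachidonic acid epoxygenase group, was just short of it with 11.5 and 7.93 (-0.53). Cyp2s1 read 21.1 and 16.3 (-0.37), and Cyp2b10, the phenobarbital-inducible enzyme, 7.35 and 5.76 (-0.35). The Cyp2s1 and Cyp2b10 differences are little larger than the probe SD. Cyp2c23, Cyp2j6 and Cyp2c29 differed by 0.06, 0.11 and 0.15, less than the probe SD.

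Cyp2a4, a steroid 15-alpha-hydroxylase in the mouse, was the highest of family 2, with 12.2 in wild-type and 17.9 in transgenic lung (1.47-fold higher). A further probe is listed for Cyp2a4 together with its near-identical copy Cyp2a5, and it read 14.7 and 15.8, 1.08-fold higher. The pair of probes agreed in sign and differed by more than 1 probe SD, so the size of the Cyp2a4 difference is uncertain. Several P450 genes, Cyp2a4 among them, differ between the sexes in mouse liver, and the sex of the Rosa26-Foxm1 mice is not labelled. The Y-linked gene Eif2s3y, looked up after the values were seen, read 7.11 in wild-type and 7.24 in transgenic lung, while Uty (0.792 and 0.348) and Kdm5d (0.349 and 0.397) were below the floor on both arrays. The part of sex in these values was not tested. Cyp2j13 and Cyp2ab1 were each above the floor on 1 array and close to it, at 1.09 in wild-type and 1.13 in transgenic lung.

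Of 10 family 4 genes, whose enzymes hydroxylate fatty acids and eicosanoids, 6 were measured, all on both arrays. Of the 6, 1 was at least 1.5-fold higher and 1 lower, against 7.10% and 8.46% of all measured genes. Below 0 were 4 of the 6, 66.7%, where 56.0% of all measured genes were. Cyp4b1, a lung enzyme that activates furans and aromatic amines, read 262 in wild-type and 159 in transgenic lung on 1 probe (1.64-fold lower). Its other probe read 125 and 86.7 (1.44-fold lower), so both probes were lower in transgenic lung. With median scaling, or with the deposited values as they are, the first probe was at -0.53 and no longer 1.5-fold apart. Cyp4v3, a hydroxylase of medium-chain and polyunsaturated fatty acids, went the opposite way, with 31.9 and 53.0 (1.66-fold higher). Cyp4f18, a leukotriene B4 hydroxylase of neutrophils, read 9.57 and 6.86 (-0.48). The neighbouring genes Cyp4f13, Cyp4f15 and Cyp4f39 were at -0.16, -0.11 and 0.22, within the probe SD.

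Of the 7 sterol and bile acid genes, 6 were measured. Among these 6, 0 were 1.5-fold apart in either direction, where 15.6% of all measured genes were. Cyp51, the sterol demethylase of cholesterol synthesis, read 10.3 in wild-type and 13.0 in transgenic lung (0.33). Cyp27a1, the mitochondrial sterol 27-hydroxylase found in macrophages, read 41.0 and 35.7 (-0.20). Cyp39a1, an oxysterol hydroxylase, read 11.0 and 11.3 (0.04). The remaining measured genes lay at the floor: Cyp46a1 (1.47 and 1.02, -0.53), Cyp8b1 (1.03 and 1.27, 0.31) and Cyp7a1 (0.368, below the floor, and 1.05). Cyp7b1 was below the floor on both arrays, with 0.986 in wild-type lung.

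Cyp26b1, which breaks down retinoic acid, read 64.5 in wild-type and 49.5 in transgenic lung (-0.38), while Cyp26a1 was below the floor on both arrays. Of the vitamin D enzymes Cyp27b1, Cyp24a1 and Cyp2r1, only the activating hydroxylase Cyp27b1 was measured, close to the floor at 1.22 and 1.49 (0.29). All 5 family 3 genes with a probe, Cyp3a13, Cyp3a16, Cyp3a25, Cyp3a41a and Cyp3a44, were below the floor on both arrays. So were the 4 steroid hormone enzymes Cyp11a1, Cyp11b2, Cyp17a1 and Cyp21a1. The remaining genes below the floor were 18 of family 2, Cyp2a12, Cyp2b9, Cyp2b13, Cyp2b19, Cyp2c37, Cyp2c38, Cyp2c39, Cyp2c54, Cyp2c55, Cyp2c70, Cyp2d9, Cyp2d10, Cyp2d13, Cyp2d26, Cyp2d34, Cyp2g1, Cyp2j5 and Cyp2j11, and 4 of family 4, Cyp4a14, Cyp4a31, Cyp4f14 and Cyp4x1. Many of these are known chiefly from the liver, the kidney or the olfactory mucosa. The 37 genes below the floor had a median intensity of 0.374 in wild-type and 0.291 in transgenic lung, and their direction is not read here.

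**Figure D2:**
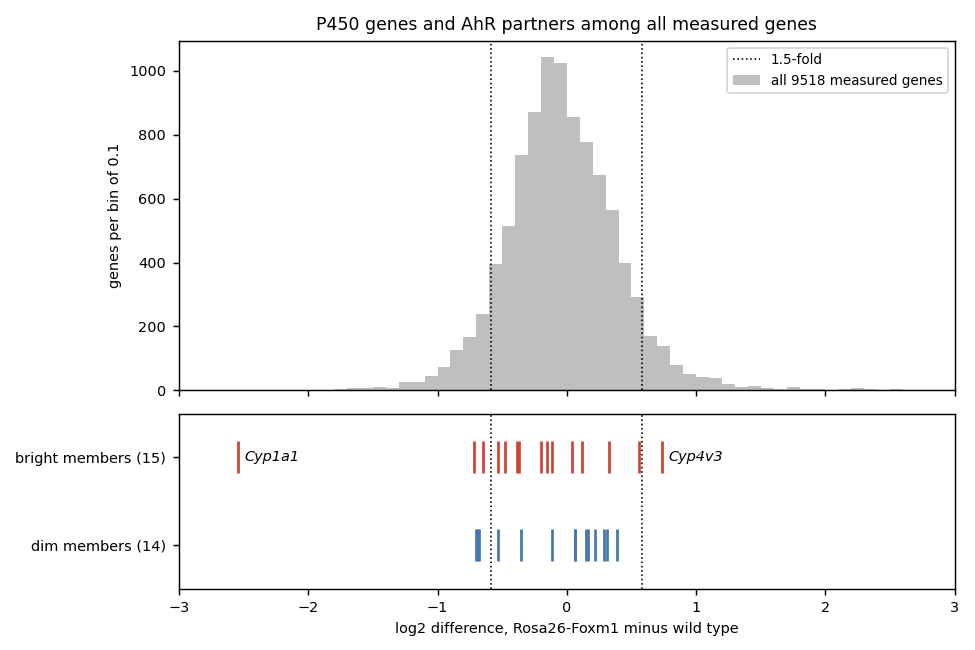
Upper panel, number of measured genes per bin of 0.1 in log2 difference (Rosa26-Foxm1 minus wild type) for all 9518 measured genes, shown from -3 to 3. Lower panel, each measured member as a tick, split into 15 bright and 14 dim members, with dotted lines at 1.5-fold. Cyp1a1, at -2.54, stands apart from the other members, which lie between -0.72 and 0.73.

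Members at least 1.5-fold apart were found among bright and dim probes. A gene was bright if its higher array was above the 75th percentile of the probes, an intensity of 7.47. Of 15 bright members, 3 were at least 1.5-fold lower and 1 higher, where 6.57% of 5495 bright genes were lower and 5.28% higher. Cyp1a1, Cyp4f18 and Cyp4f13 were bright through the wild-type array only, which favours lower values among bright members. With the floor at the 75th percentile, 2 of the 15 were lower, against 5.26% of all genes. Of 14 dim members, 3 were lower and 0 higher, against 11.0% and 9.59% of 4023 dim genes. The bright members had a median of -0.20 and the dim ones of 0.06. Without Cyp1a1, the median of the measured members was -0.11.

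Many P450 genes lie in tandem clusters, and measured neighbours in RefSeq lay on both sides of 0. Members less than 1 Mb from the next formed 8 clusters with 41 of the 66 genes, of which 13 were measured. Both signs occurred in all 3 clusters with more than 1 measured gene. With 56.0% of all measured genes below 0, mixed signs in so few genes do not set the clusters apart. All differences of the Cyp4f cluster were within the probe SD, as were those of Cyp2j6 and Cyp2j13, the latter a bound. Cyp2s1 (-0.37) and Cyp2b10 (-0.35) lie in a cluster with Cyp2a4 (0.56). Cyp2j9 (-0.53) and Cyp2j13 lie with Cyp2j6 (0.11), and Cyp4f13 and Cyp4f15 with Cyp4f39. Cyp1a1 lies beside Cyp1a2, which was below the floor. Close copies within a cluster may share signal, and probe sequences were not used here.

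P450 enzymes need electrons and haem. Of 18 listed genes of electron transfer and haem supply, 15 had a probe and all 15 were measured, with a median of -0.04. At least 1.5-fold apart were 0 of them, where 15.6% of all measured genes were. Fech, which inserts iron to form haem, was at -0.53 and Uros at -0.49. Alas1, the first enzyme of haem synthesis, was at -0.48, with 161 in wild-type and 116 in transgenic lung. At the other end, Alad was at 0.35, Urod at 0.34 and Cyb5a, the cytochrome b5 that supports several P450 reactions, at 0.25 with 293 and 348. Ptgis, prostacyclin synthase and itself a P450-type enzyme of endothelium and smooth muscle, read 47.9 and 34.9 (-0.46).

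A further list joined conjugating enzymes and epoxide hydrolases with oxidases, carbonyl reductases, esterases and aldehyde dehydrogenases outside the P450 family, and 18 of its measured genes lay above 0 and 10 below. Of 39 listed, 28 were measured, 35.7% of them below 0, where 56.0% of all measured genes were. At least 1.5-fold higher were 5 and lower 3, 17.9% and 10.7%, against 7.10% and 8.46% of all measured genes. The median of the list was 0.27. With median scaling 5 were higher and 1 lower, with a median of 0.33. Mgst2, a microsomal glutathione transferase, read 12.6 in wild-type and 25.7 in transgenic lung (2.04-fold higher), the carboxylesterase Ces1g was 1.76-fold and the transferase Gstt1 1.66-fold higher. The carboxylesterase Ces1d was 1.82-fold, the flavin monooxygenase Fmo1 1.59-fold and the retinal dehydrogenase Aldh1a1 1.55-fold lower. The only conjugating enzymes measured were glutathione transferases and Nat2. Sult1c1, Sult1d1, Ugt2b34, Ugt2b35 and Nat1 were below the floor on both arrays. The microsomal epoxide hydrolase Ephx1, which acts on hydrocarbon epoxides made by family 1 enzymes, read 114 and 87.4 (-0.39). The difference between this list and the P450 genes was not tested.

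Of 15 other listed receptors and factors that regulate P450 genes, 7 were measured, with a median of -0.34. Below 0 were 5 of them, 71.4%, where 56.0% of all measured genes were. None of the 7 was at least 1.5-fold higher and 1 was lower, Nr2f2 at 55.5 and 31.0, against 7.10% and 8.46% of all measured genes. Ppara, the fatty acid receptor that drives family 4 genes, was at -0.42, Cebpa at -0.38 and Pparg at 0.45. The xenobiotic receptors Nr1i2 and Nr1i3 were below the floor on both arrays. Of 10 measured sterol partners, Ch25h, the cholesterol 25-hydroxylase, read 7.66 and 39.6 (5.17-fold higher) and no other was 1.5-fold apart, with a median of 0.08. The 7 measured eicosanoid and retinoid partners lay between -0.42 (Rarg) and 0.48 (Crabp1), 0 of them 1.5-fold apart. Of all measured genes, 15.6% were 1.5-fold apart in either direction, and both lists of partners are short.

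**Figure D3:**
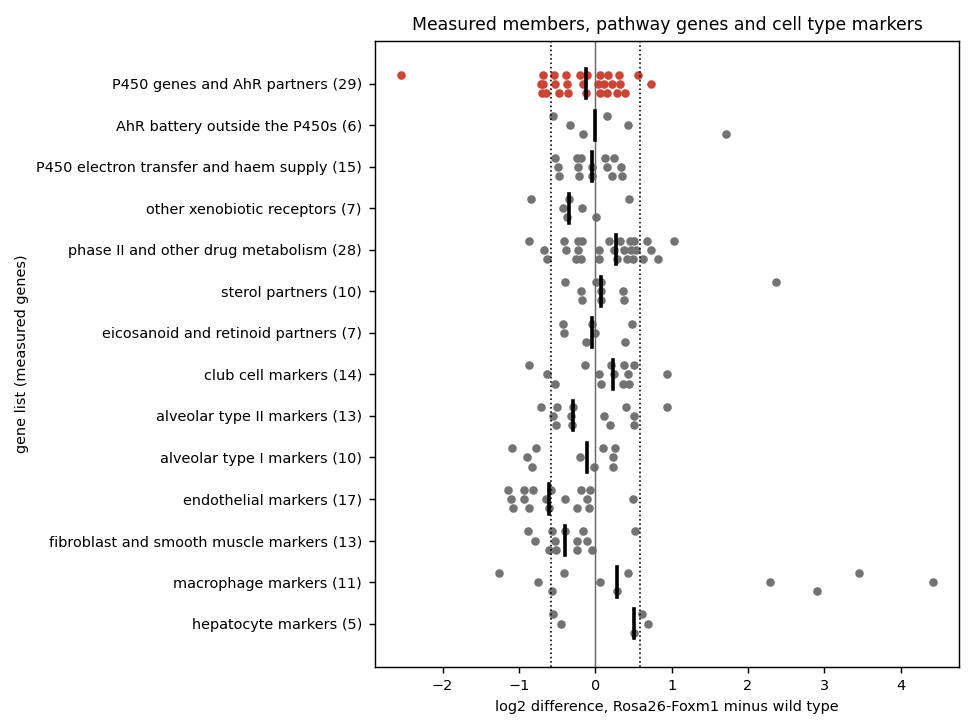
Log2 difference (Rosa26-Foxm1 minus wild type) of each measured gene in the P450 and receptor set (top) and in lists of pathway genes and cell type markers, with the number measured in brackets, black bars for medians and dotted lines at 1.5-fold. The median is -0.12 for the members, 0.27 for the list of phase II and other drug-metabolising genes and -0.61 for endothelial markers.

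Cell type markers also differed between the arrays, and their sums below run over all markers of a list that had a probe. A sum follows its brightest probes and can part from the count of markers. Of all measured genes, 7.10% were at least 1.5-fold higher, 8.46% lower, and 56.0% lay below 0. Of 14 measured club cell markers, 1 was at least 1.5-fold higher and 2 lower, with a median of 0.23 and 10 of the 14 above 0, although the summed intensity was 7167 in wild-type and 6138 in transgenic lung. Cyp4b1 was lower together with the club cell genes Ces1d, Aldh1a1 and Scgb1a1 (-0.86, -0.63 and -0.53), whereas Sftpd, Gsta4 and Reg3g (0.94, 0.51 and 0.44) were above 0. Of 17 measured endothelial markers, 9 were at least 1.5-fold lower (6 with median scaling) and 0 higher, with summed intensities of 2619 and 1687. Type II markers summed to 7867 and 7829, with 1 of 13 higher and 1 lower. The higher one was again Sftpd, which is in both lists, and Ces1d and Aldh1a1 are also in the list of drug-metabolising genes above. Type I markers summed to 1730 and 1547, with 0 of 10 higher and 4 lower. Fibroblast and smooth muscle markers summed to 1666 and 1365, with 3 of 13 measured lower and 0 higher. The 11 macrophage markers summed to 1054 and 1443, with 4 higher and 2 lower, and ciliated cell markers to 582 and 638, with 2 of 9 measured higher and 1 lower. The part of these markers in the P450 values was not tested. Of 11 hepatocyte markers with a probe, 6 were below the floor on both arrays, among them albumin (Alb) and Apoa1, and 3 of the 5 measured markers lay above 0. Past the 1.5-fold line were 2 upwards, from 0 with the floor at the 75th percentile to 5 with none, and 0 downwards, or 1 with loess or a lower floor. Their sums of 122 and 98.3 follow Trf, at 108 and 78.8.

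**Figure D4:**
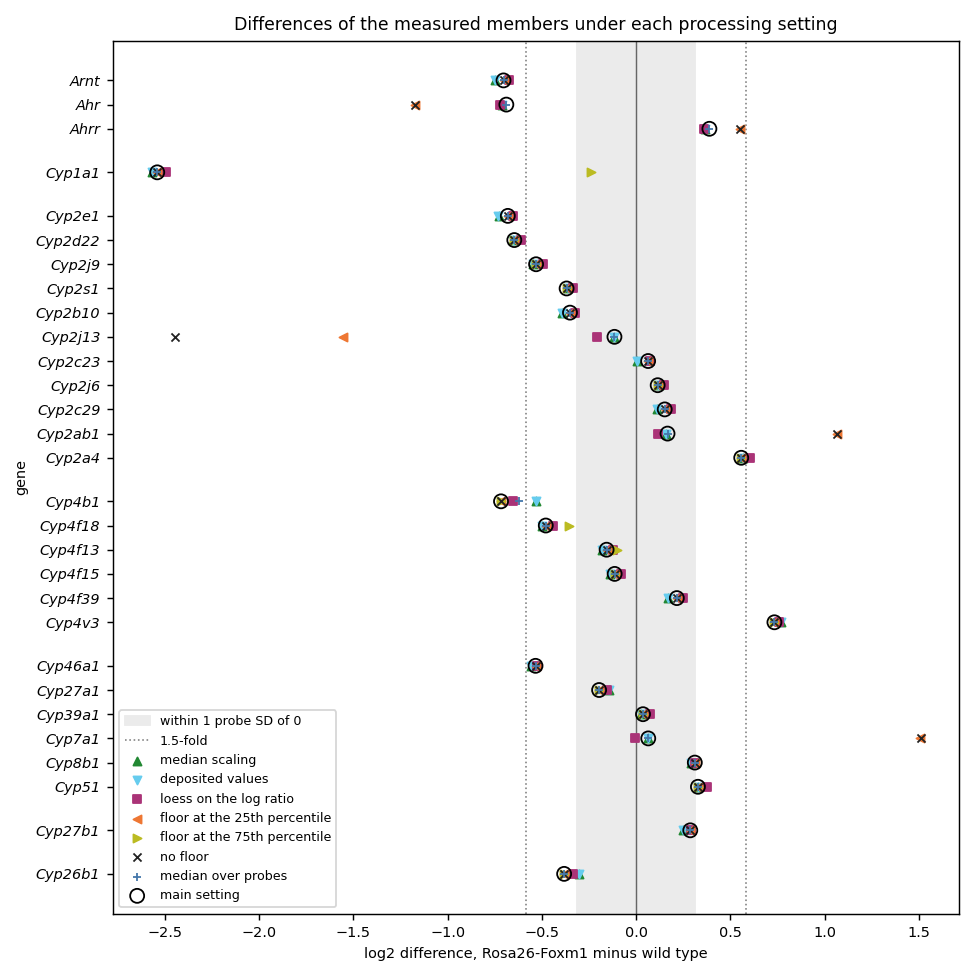
Log2 difference of each measured member (Rosa26-Foxm1 minus wild type) under the main setting (open circles) and 7 other settings, with grey shading for 1 probe SD around 0 and dotted lines at 1.5-fold. Members close to the floor, such as Cyp2j13, Cyp7a1 and Cyp2ab1, spread widely with the floor, while Cyp4v3, Cyp2d22 and Cyp2e1 keep nearly the same value wherever they were measured.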

How the data were processed

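The data are 1 value per probe for 2 one-colour arrays, wild-type and Rosa26-Foxm1 lung. Per the labels' protocols, RNA was labelled with digoxigenin by an Applied Biosystems chemiluminescent kit. The deposited values are linear probe intensities that the authors had scaled to a median near 1.00 on each array. Not given in the sources used here are their background correction and the rest of their normalisation. Gene names come from the platform annotation where 1 gene was listed (14411 probes), with symbols updated by gene ID to RefSeq GRCm38.p6. All 66 members matched a gene ID.

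Values were quantile normalised between the arrays, floored at the 50th percentile and put on a log2 scale in Python 3.11.15 (numpy 2.4.6, pandas 2.3.3). Of a gene's probes, the one with the highest mean was used. Each difference is the transgenic minus the wild-type value, and is a bound, written as at least, where 1 array is below the floor. With 1 array per group there is no p-value, and the precision is limited by the number of arrays. The computation was tested on simulated data. The members and gene lists were chosen with earlier results of these data known, and Cyp2ab1 was put with family 2 after its symbol was seen. All measured members could be named. Both values are given for those at least 1.5-fold apart, for Ahr, Arnt and Ahrr, and for the 5 with the highest mean intensity, and up to 3 genes are named at each end of a list. The alternatives tried were scaling to the median, no scaling of the deposited values, loess (statsmodels 0.14.6) with a span of 0.3, a floor at percentile 25 or 75, no floor, and the median of a gene's probes. One P450 gene is not reported here.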

Additional observations from a re-analysis of the deposited data

How the results depend on the processing

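The counts of members depend chiefly on the floor. In the main setting 1 member was at least 1.5-fold higher, 6 were 1.5-fold lower, 0 were 2-fold higher and 1 was 2-fold lower. With the floor at the 25th percentile these counts were 4, 15, 3 and 5 of 55 measured members, and with no floor 9, 22, 5 and 8 of 66. The shares of all genes moved as well, in the same order to 10.9%, 12.4%, 4.34% and 4.28% with the floor at the 25th percentile and to 13.2%, 14.5%, 5.72% and 5.98% with none. The members' own shares at least 1.5-fold higher and lower were 7.27% and 27.3%, and 13.6% and 33.3%. With the floor at the 75th percentile 15 members were measured, 2 were 1.5-fold lower and 0 were 2-fold lower, against 5.26% and 0.382% of all genes. The 2-fold count fell because Cyp1a1 in Rosa26-Foxm1 lung was then below the floor and its difference a bound of -0.24. With loess 2 members were 1.5-fold higher, and with median scaling 5 were 1.5-fold lower. The median of the measured members lay between -0.20, with the floor at the 75th percentile, and -0.11, with loess. Cyp7a1 was the 1 member of 29 that changed sign, between -0.00 with loess and 1.51 with no floor. Ahr, Cyp2j13, Cyp2ab1 and Cyp7a1 moved by more than the probe SD with a lower floor or none, and Cyp1a1 with the higher floor. With no floor several members lay further above 0 than Cyp4v3 (0.73), among them Cyp1a2, Cyp7a1 and Cyp2ab1 (1.06). Cyp7b1, at 0.986 in wild-type and 0.126 in transgenic lung, then lay further below 0 than Cyp1a1 (-2.54). Cyp2j13 was close to Cyp1a1 at -2.45. Apart from Cyp4v3 and Cyp1a1, each of these genes was below the floor of the main setting on at least 1 array. Cyp4v3 and Cyp2d22 were 1.5-fold apart in all 8 settings. No replicate could be left out, and no paired analysis was possible because each group has 1 array. Dim probes near the floor limit what can be read for the receptor genes.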

Other observations

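Besides the genes with a probe of their own, 7 probes are listed for 2 or 3 P450 genes at once, 16 different genes in all. Of these, 5 were below the floor on both arrays, among them the probe shared by Cyp4a12a and Cyp4a12b, at 0.197 in wild-type and 0.875 in transgenic lung, and that of Cyp3a11, Cyp3a41a and Cyp3a44, at 0.172 and 0.196. The probe of Cyp2c40 and Cyp2c68 was close to the floor with 1.04 and 0.811. Only the probe of Cyp2a4 and Cyp2a5 was well above it.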
